A study of Mus musculus with 27 samples.

Results

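Transcript levels of 10 secreted regulators of myeloid and inflammatory cells were examined in the tumour segments of mouse liver metastases. The members were the colony-stimulating factors Csf1, Csf2 and Csf3, the interleukin-1 cytokines Il1a and Il1b, the interleukin-6 family cytokines Il6, Il11 and Lif, and the related secreted proteins Spp1 and Mif. They were taken by symbol, and all 10 were found among the 19615 targets of the table. They were proposed as a group with earlier results of these data known, so the group itself is not independent evidence.

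The metastases grew in 2-month-old C57BL/6 mice after MC38 cells, a mouse colon carcinoma line, were injected into the portal vein. There were 13 regions labelled CMTM6 knockdown, from MC38 cells carrying an shRNA against Cmtm6, and 14 control regions, from MC38 cells carrying a nontargeting shRNA. CMTM6 is a membrane protein known to keep PD-L1 from degradation. The host mice and the parental line were the same in both groups, and only the injected cells carried the shRNA. The study took metastases from 3 mice per group, and which region came from which mouse is not given in the labels. Some regions therefore shared an animal, so every p-value over regions given here is too small and every interval too narrow. In the GeoMx assay, probes with photocleavable tags are hybridised to tissue, light releases the tags of one chosen area, and these are sequenced. The study stained tumour cells for pan-cytokeratin and fibroblasts for desmin, and it reports these values as those of MC38 cells. The labels call the profiled area only a remainder. It was read here as the part left after desmin-positive fibroblasts had been collected apart, which the labels do not state.

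The segments held more than tumour cells, and their epithelial signal was low. Of 10 epithelial markers, 1 (Krt8) was above the background limit and Epcam was below it. Of 23 macrophage markers 18 were above it, and of 16 T or NK cell markers 8 were. Of 15 fibroblast and stellate markers 10 were, the desmin gene Des among them, and Col3a1 ranked 75 of 19615 targets. A level is thus the sum over all cells in a segment, and fewer cells of a type cannot be told apart from less RNA per cell. Values were put on a common scale, on which each region has the same median over all targets, because the groups had been normalised separately. The total signal ranged from 4223031 to 19827298 steps in knockdown-labelled regions and from 9977866 to 26328209 steps in control regions, where a step is the smallest unit in which a region's values are spaced. The targeted gene checked the labels first. Cmtm6 had a lowest, median and highest common-scale value of 417, 607 and 722 in knockdown-labelled regions, against 511, 641 and 701 in control regions. The ranges overlapped, and the log2 fold change, -0.063, was within its error (SE 0.0673; limma adjusted p = 0.631). Regions are therefore called knockdown-labelled, and each direction is one between labels.

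These proteins reach myeloid cells by a few shared routes. CSF1 sustains macrophages through the receptor tyrosine kinase CSF1R, GM-CSF (Csf2) acts on macrophages, granulocytes and dendritic cells through a shared beta chain, and G-CSF (Csf3) drives the formation of neutrophils. Both interleukin-1 forms signal through IL1R1 to NF-kB, and IL-1 beta must be cut by an inflammasome before release. IL-6, IL-11 and LIF signal through gp130 (Il6st) to STAT3. Osteopontin (Spp1) binds integrins and CD44, and macrophage migration inhibitory factor (Mif) binds CD74. The study measured cytokines that MC38 cells release in culture as proteins and asked how CMTM6 bears on them. It also compared transcripts of those proteins in the metastases. Of the 10 members 7 belong to that panel of proteins, and Csf2, Spp1 and Mif do not. The comparison here was of the transcripts of all 10 members in the metastases.

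Promoter sequence is shown for the member that passed the test, Mif, and for the pair of members whose levels were most alike across regions, Il1b and Lif. Each run is the 250 bases before the annotated start site, from RefSeq on GRCm38.p6, written 5′ to 3′ on the strand of the gene. On GRCm38 the gene models are Mif (ENSMUSG00000033307.7, chromosome 10, 75859353 to 75860240), Il1b (ENSMUSG00000027398.13, chromosome 2, 129364570 to 129371139) and Lif (ENSMUSG00000034394.14, chromosome 11, 4257557 to 4272514). The windows are chr10:75860278-75860527 (minus strand) for Mif, chr2:129371140-129371389 (minus strand) for Il1b and chr11:4257318-4257567 (plus strand) for Lif. Capitals mark a match, on either strand, to a cyclic AMP response element (TGACGTCA), an AP-1 site (TGANTCA), an NF-kB site (GGGNN directly followed by TTTCC) or the core of a hypoxia response element (ACGTG).
Mif: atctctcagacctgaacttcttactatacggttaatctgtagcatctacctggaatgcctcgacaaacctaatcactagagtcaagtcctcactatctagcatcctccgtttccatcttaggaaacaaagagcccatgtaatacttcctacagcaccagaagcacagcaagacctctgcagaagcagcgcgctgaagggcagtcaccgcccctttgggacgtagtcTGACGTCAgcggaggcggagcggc
Il1b: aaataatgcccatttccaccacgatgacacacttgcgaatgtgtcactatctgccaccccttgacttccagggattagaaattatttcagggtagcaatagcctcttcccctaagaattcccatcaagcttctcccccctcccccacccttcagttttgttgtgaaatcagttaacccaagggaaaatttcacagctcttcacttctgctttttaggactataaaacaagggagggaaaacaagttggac
Lif: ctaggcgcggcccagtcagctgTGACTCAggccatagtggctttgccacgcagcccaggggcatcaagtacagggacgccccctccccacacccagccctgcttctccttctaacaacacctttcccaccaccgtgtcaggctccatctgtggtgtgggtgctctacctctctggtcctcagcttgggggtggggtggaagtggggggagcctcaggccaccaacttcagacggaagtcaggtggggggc
The Mif window held the cyclic AMP response element once, its first base 24 bases before the start site, and 1.55% of 32817 windows of this length in mouse genes hold it. The Lif window held 1 AP-1 match, 228 bases before the start site, as 6.75% of windows do. The Il1b window held no match. Of the other members with a window, Csf1 had 1 NF-kB match (1.41% of windows), Il6 had 1 NF-kB and 1 AP-1 match, Il1a had 1 AP-1 match, and Il11 had 1 at the second of its annotated start sites. No member window held ACGTG, which 16.6% of all windows hold. A match is a string of letters in this window and no evidence of binding. Windows were found for 9 of the 10 members.

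The members ranged from some of the brightest targets of the table to some of the dimmest, and 5 of the 10 were readable above background. The background limit was percentile 95 of the mean levels of 1125 genes for odour, pheromone, taste and trace amine receptors, 197 on the common scale. Spp1 (ENSMUSG00000029304.14, chromosome 5, 104435118 to 104441050) ranked 18 of 19615 targets and stood 154-fold over the limit. Mif ranked 117 and stood 59.8-fold over it. Csf1 (ENSMUSG00000014599.10, chromosome 3, 107741048 to 107760469) was 3.28-fold over it, Lif 1.38-fold and Il1b 1.11-fold. In the order of mean log2 level, Spp1 exceeded Mif, Mif exceeded Csf1, and Csf1 exceeded Lif in 27 of 27 regions each. Lif exceeded Il1b in 23 of 27, a mean log2 difference of 0.31 ± 0.38 (SD, n = 27), so these neighbours did not separate beyond their spread. Probes differ in how well they capture a transcript, so this is an order of probe readings, not of transcript numbers.

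The remaining 5 members, Csf2, Csf3, Il6, Il1a and Il11, lay below the background limit. None of them exceeded percentile 95 of the background genes of its own region in any of the 27 regions. Their neighbours in the order of levels were interleaved, with Csf2 over Csf3 in 20 of 27 regions and Il6 over Il1a in 16 of 27. Il11 was lowest, at rank 19599 of 19615. Its reading was 14 to 143 steps in knockdown-labelled regions and 70 to 199 steps in control regions. For these 5 genes no level could be set apart from background at this depth, which does not show that the transcripts were absent.

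**Figure D1:**
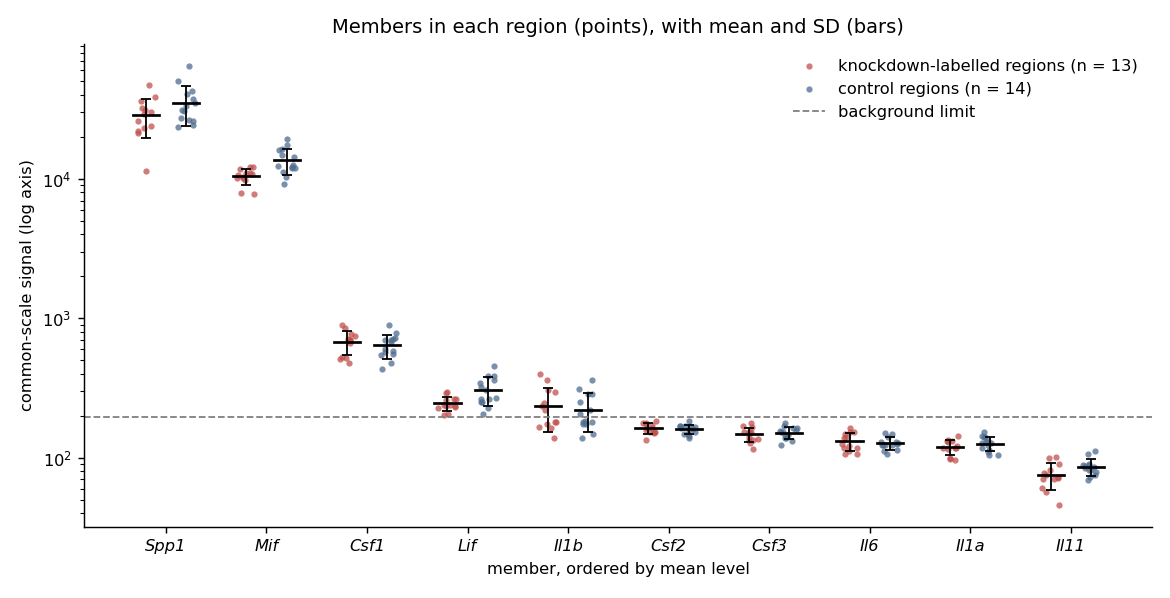
Common-scale signal (log axis) of the 10 members in 13 knockdown-labelled regions (left of each pair) and 14 control regions (right), with mean and SD as bars and the background limit of 197 as a dashed line. Spp1 and Mif sit far over the limit, Csf1 sits clearly over it, Lif and Il1b sit just over it in their means, and the other 5 sit below it.

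Between labels, Mif was lower in the knockdown-labelled regions and no other member passed the test. At an adjusted p under 0.05, 1 of 10 members was called (limma, Benjamini-Hochberg over all targets), where 3.89% of all targets were called, 1.31% as higher and 2.58% as lower. Among the targets above background, 3.08% were called as lower. With so few members, this share is not told apart from the background. At an unadjusted p under 0.05 there were 3, Mif, Lif and Il11, where 20.8% of all targets passed. Of the 10 members, 6 had a negative and 4 a positive log2 fold change. Their median was -0.060, beside -0.038 over all targets.

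Among the colony-stimulating factors, the values of Csf1 overlapped almost entirely between labels. Csf1 had a lowest, median and highest common-scale value of 481, 701 and 901 in knockdown-labelled regions, against 433, 641 and 901 in control regions. All 13 knockdown-labelled regions lay within the control range. The log2 fold change was 0.080 (SE 0.104, 95% interval -0.13 to 0.29; limma adjusted p = 0.705). Fitted beside each region's log2 total it was 0.18 (limma adjusted p = 0.604). Csf2 averaged 163 ± 14.4 in knockdown-labelled regions (SD, n = 13) and 160 ± 12.3 in control regions (SD, n = 14), both below the background limit. Csf3 averaged 147 ± 17.5 in knockdown-labelled regions (SD, n = 13) and 152 ± 14.6 in control regions (SD, n = 14), again below it. Neither gene passed the test. The log2 fold change of Csf2 was 0.023 (limma adjusted p = 0.842) and that of Csf3 was -0.044 (limma adjusted p = 0.716).

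Of the interleukin-1 cytokines, Il1b varied widely between regions, and no difference by label passed the test. Its lowest, median and highest common-scale values were 138, 221 and 401 in knockdown-labelled regions, against 138, 195 and 363 in control regions. It exceeded percentile 95 of its region's background genes in 7 of 13 knockdown-labelled and 7 of 14 control regions. The high regions were knockdown-labelled regions 4 and 11 and control regions 8 and 9, numbered within each group. The log2 fold change was 0.073 (SE 0.172, 95% interval -0.28 to 0.43; limma adjusted p = 0.859). It was 0.32 with the log2 total as a covariate (limma adjusted p = 0.521), and it ran from 0.0029, without knockdown-labelled region 4, to 0.13 when 1 region was left out. Il1a, the form that acts without cleavage, averaged 120 ± 14.9 in knockdown-labelled regions (SD, n = 13) and 126 ± 14.9 in control regions (SD, n = 14), below the background limit (log2 fold change -0.077, limma adjusted p = 0.538).

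In the interleukin-6 family, Lif was the readable member. Lif is a gp130 cytokine known for keeping mouse embryonic stem cells undifferentiated. Its lowest, median and highest common-scale values were 204, 238 and 299 in knockdown-labelled regions, against 206, 287 and 456 in control regions. On the log2 scale, each of the 13 knockdown-labelled regions was under the mean of the control regions, and 7 of 14 control regions lay above the highest knockdown-labelled one, though the ranges overlapped. The log2 fold change was -0.29 (SE 0.0962, 95% interval -0.49 to -0.09), which missed the threshold over all targets (limma adjusted p = 0.0799). A permutation test of this single gene gave p = 0.00852 (two-sided, 100000 resamples). The call depended on single regions: without control region 11 the log2 fold change was -0.33 (limma adjusted p = 0.0378), and without control region 12 it was -0.32 (limma adjusted p = 0.0460). With the log2 total as a covariate it was -0.16 (limma adjusted p = 0.604), and with background subtraction it was -0.55 (limma adjusted p = 0.133).

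Il6 and Il11 were read only within background. Il6 averaged 132 ± 19.7 in knockdown-labelled regions (SD, n = 13) and 127 ± 12.8 in control regions (SD, n = 14), with a log2 difference of 0.040 (limma adjusted p = 0.779). Il11 averaged 75.2 ± 15.9 in knockdown-labelled regions (SD, n = 13) and 86.3 ± 11.6 in control regions (SD, n = 14), with a log2 difference of -0.21 (limma adjusted p = 0.168). After subtraction of background every Il11 value sat at the floor, so this difference is one between background readings.

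Spp1 had the highest reading of the members. Its within-group SD was the largest, 0.46 on the log2 scale, close to the 0.45 of Il1b. Its lowest, median and highest common-scale values were 11426, 29095 and 46846 in knockdown-labelled regions, against 23430, 32530 and 64620 in control regions. Knockdown-labelled region 3 was far below all others, the next being region 8 at 21507, and control region 6 was highest. That region 3 also had the highest mean log2 level of 15 hepatocyte markers of all regions, 9.00. Spp1 correlated with that mean at r = -0.69 in knockdown-labelled and 0.66 in control regions, and its part in the Spp1 levels was not tested. The log2 fold change was -0.31 (SE 0.171, 95% interval -0.66 to 0.04; limma adjusted p = 0.302). A permutation test of this gene gave p = 0.0902 (two-sided, 100000 resamples). Without knockdown-labelled region 3 the log2 fold change was -0.21 (limma adjusted p = 0.418), and without control regions 6 and 7 together it was -0.19 (limma adjusted p = 0.546). The difference was within the spread between regions.

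Mif, an abundant cytokine with tautomerase activity that many cell types store and release, was lower in the knockdown-labelled regions. Its lowest, median and highest common-scale values were 7812, 10654 and 12241 in knockdown-labelled regions, against 9275, 12510 and 19232 in control regions. Each of the 13 knockdown-labelled regions was under both the mean and the median of the control regions, and 8 of 14 control regions lay above the highest knockdown-labelled one. The log2 fold change was -0.36 (SE 0.0952, 95% interval -0.55 to -0.16; limma adjusted p = 0.0290), a level 0.780-fold that of control regions. A permutation test of this gene gave p = 0.00117 (two-sided, 100000 resamples). The fold change lay at percentile 0.760 of all targets. The mouse genome holds processed Mif copies of near-identical sequence, so the reading may include more than this gene.

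The call for Mif rested on a margin that several settings closed. It was lost without knockdown-labelled region 8 (limma adjusted p = 0.0594) and without control region 3 (p = 0.0580), 6 (p = 0.0581) or 8 (p = 0.0504), and held in the other 23 of 27 fits that left out 1 region. With the regions' log2 totals as a covariate the log2 fold change was -0.29 (limma adjusted p = 0.283), and without control regions 6 and 7 together it was -0.28 (limma adjusted p = 0.0921). The lowest and highest totals were both lower in knockdown-labelled regions, so this covariate overlaps with the label. With it only 27 of 19615 targets were called, so a call lost there cannot be ascribed to depth, whose part was not tested. The direction was negative under every setting tried.

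On the values as deposited, all 10 members were lower in the knockdown-labelled regions, as were 98% of all targets. Their log2 fold changes ran from -0.86 for Mif to -0.42 for Csf1, with a median of -0.56, beside -0.54 over all targets. By the rule the study used, a fold change over 1.5 with an unadjusted p below 0.05, 4 members (Il11, Lif, Spp1 and Mif) were lower as deposited, where 31.9% of all targets were. On the common scale 0 members met that rule. The share of all targets that met it on that scale was not counted, so the change from 4 to 0 cannot be read as particular to these members. There 3 members had an unadjusted p under 0.05 in limma, where 20.8% of all targets did. The upper quartile of the deposited signal was 539 ± 0.959 in knockdown-labelled regions (SD, n = 13) and 788 ± 1.45 in control regions (SD, n = 14), so the deposited values carry a difference in scale set by the normalisation of each group. Mif, Spp1, Lif and Il11 were most negative and Csf1 and Il1b least on both scales. The common scale multiplies all targets of a region by the same factor. The order of the members therefore had to be alike, and it is no separate evidence.

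**Figure D2:**
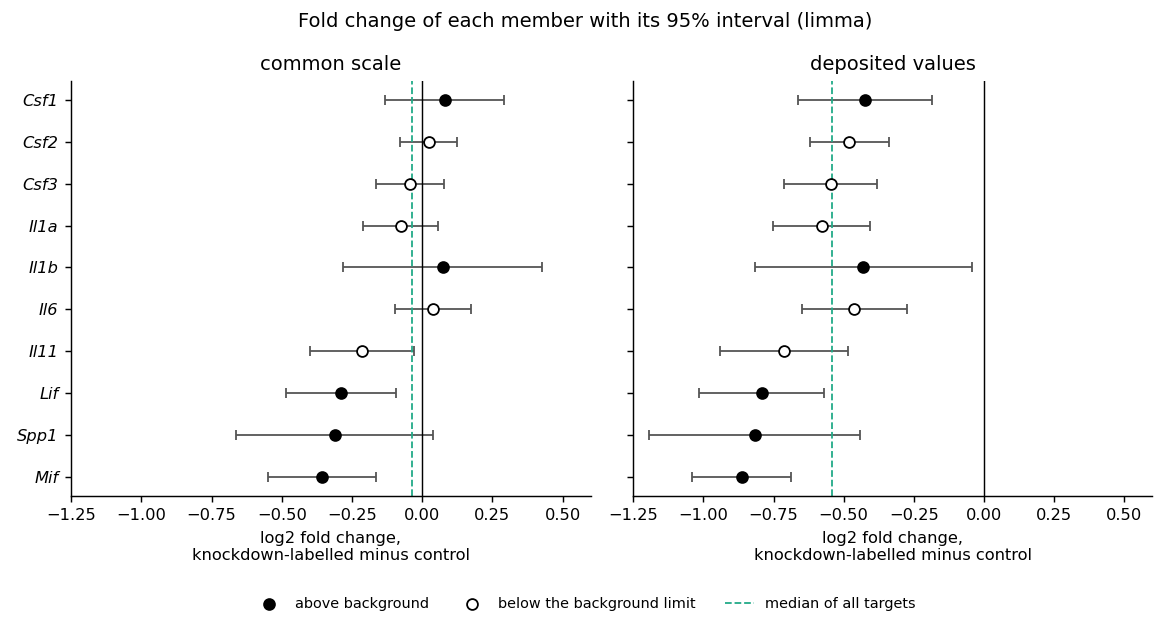
Log2 fold change of each member, knockdown-labelled minus control, with its 95% interval from limma, on the common scale (left) and on the deposited values (right); filled points are above background and the dashed line is the median of all targets. The members keep their order because all targets of a region are scaled by the same factor. The whole set moves with the median of all targets, which is -0.038 on the common scale and -0.54 as deposited.

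Across regions, Mif tracked glycolytic enzymes more closely than it tracked any other member. Likeness was the Pearson correlation, over 27 regions, of log2 values after the group mean was taken off, among the 10799 targets above background. The targets most like Mif were Eno1 (r = 0.96), Pkm (r = 0.95) and Tpi1 (r = 0.94), which encode enolase, pyruvate kinase and triosephosphate isomerase. These are descriptions with no test, since regions share animals, libraries and depth, and all 4 targets have high readings. Eno1 averaged 19019 ± 3286 in knockdown-labelled regions (SD, n = 13) and 27702 ± 7699 in control regions (SD, n = 14), with a log2 difference of -0.51 (limma adjusted p = 0.0147). Tpi1 fell as well (-0.39, limma adjusted p = 0.0302), and Pkm had -0.25 (limma adjusted p = 0.0825). With the log2 total as a covariate Eno1 had -0.42 and Tpi1 -0.31, and neither passed (limma adjusted p = 0.213 and 0.308).

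Knockdown-labelled regions 1 and 8 had the lowest levels of both Mif, at 7812 and 7963, and Eno1. Control regions 6 and 7 had the highest levels of both, with Mif at 19232 and 17459. The log2 ratio of Mif to Eno1 was -0.85 ± 0.12 in knockdown-labelled regions (SD, n = 13) and -1.01 ± 0.10 in control regions (SD, n = 14), so Mif was lower by less than Eno1 was. A list of hypoxia and glycolysis genes had a median log2 fold change of -0.51. Where 2.58% of all targets were called as lower, 10 of its 17 measured genes fell and 0 rose. They included Ldha (-0.53), Eno1, Vegfa (-0.85) and Pdk1 (-0.63). With the log2 total as a covariate Ldha, Vegfa and Pdk1 had -0.43, -0.69 and -0.66 and did not pass (limma adjusted p = 0.176, 0.199 and 0.112). The summed level of the list was 54916 to 91830 in knockdown-labelled regions and 66523 to 176818 in control regions. Over 27 regions the mean of this list correlated with Mif at r = 0.89 (0.87 without the 2 regions farthest out in Mif). Its part in the Mif difference was not tested.

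**Figure D3:**
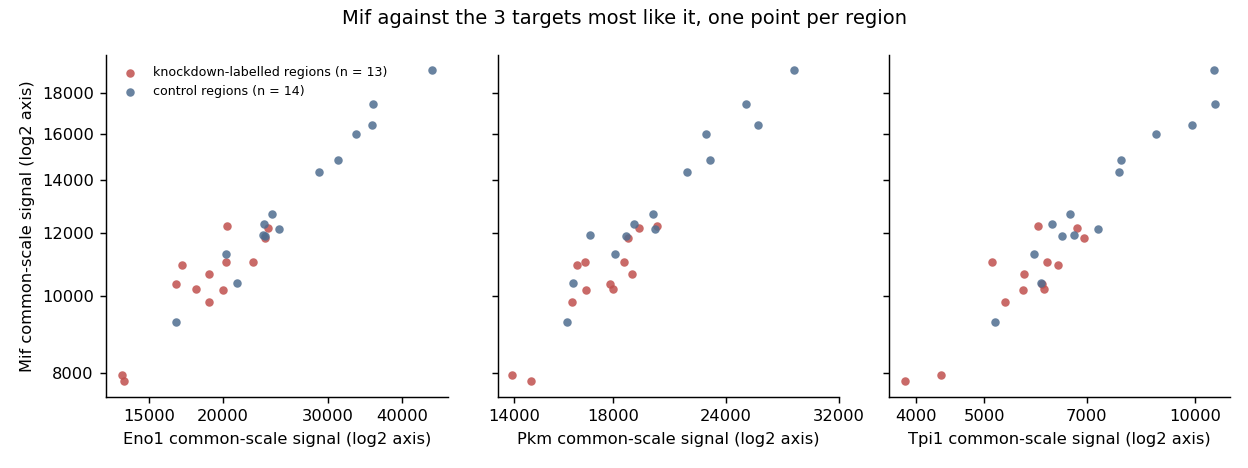
Mif common-scale signal against that of Eno1, Pkm and Tpi1 (log2 axes), 1 point per region, for 13 knockdown-labelled and 14 control regions. Mif rises with each target in both labels, with knockdown-labelled regions 1 and 8 at the low end and control regions 6 and 7 near the high end. The mean log2 ratio of Mif to Eno1 was higher in knockdown-labelled regions (-0.85) than in control regions (-1.01).

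The targets most like each of the other 4 readable members differed from member to member. Spp1 was most like Nlrp12 (r = 0.92), Kdm6b (r = 0.83) and Hgf (r = 0.80), the last a growth factor for hepatocytes and epithelium. Lif was most like Mfsd2a (r = 0.84), Kctd13 (r = 0.82) and Dusp6 (r = 0.81), a phosphatase that ERK signalling induces. Il1b was most like the immediate-early gene Junb (r = 0.80), Ttc39c (r = 0.79) and Stx11 (r = 0.79). Some of these values differed by group. In knockdown-labelled and control regions, r was 0.47 and 0.94 for Lif with Dusp6, and 0.92 and 0.65 for Il1b with Junb. Csf1 was most like Sowahc (r = 0.81), the lysyl oxidase family gene Loxl3 (r = 0.80) and Dph5 (r = 0.79). None of these 12 partners passed the test between labels, the lowest adjusted p being 0.0731 for Kdm6b (limma). The mean of the hypoxia and glycolysis list was not tied to Mif (r = 0.89) alone. It also rose with Spp1 (r = 0.58) and Lif (r = 0.52), and had r = 0.34 with Il1b and 0.17 with Csf1. By group, knockdown-labelled and then control, r was 0.35 and 0.80 for Spp1, and 0.43 and 0.54 for Lif.

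Among themselves, the readable members formed no single axis. The highest correlations of values less the group mean were between Il1b and Lif (r = 0.66), Il1b and Spp1 (r = 0.54), Lif and Spp1 (r = 0.54) and Spp1 and Mif (r = 0.51). The lowest was that between Csf1 and Spp1 (r = -0.0015). These values were unlike in the separate groups, which was not tested. In knockdown-labelled and control regions, r was 0.037 and 0.79 for Csf1 and Il1b, and 0.26 and 0.77 for Lif and Spp1. It was 0.34 and 0.67 for Spp1 and Mif, and -0.27 and 0.31 for Csf1 and Spp1. For Csf1 and Mif it was 0.17 and 0.13. The spread between regions of a group was large for all 5, with within-group SDs of 0.46 for Spp1, 0.45 for Il1b, 0.29 for Csf1, 0.26 for Lif and 0.26 for Mif on the log2 scale. Those SDs lay at percentiles 97.5, 97.2, 90.2, 86.9 and 85.8 of targets above background. Knockdown-labelled region 4 and control region 8 each held the highest level in their group of Csf1, Il1b and Lif. They also had high totals, 19130825 and 26328209 steps. The correlation with the log2 total was 0.51 for Il1b, 0.45 for Lif and 0.33 for Csf1, and that with the ratio of background to median was 0.64, 0.48 and 0.07, over 27 regions and less the group mean. The part of depth in this pattern was not tested.

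**Figure D4:**
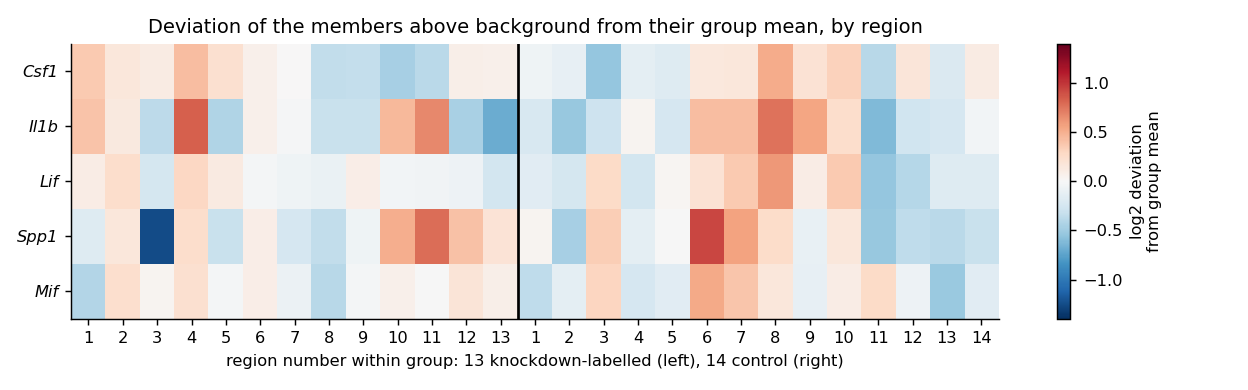
Deviation of the 5 members above background from their group mean (log2, colour scale), for 13 knockdown-labelled regions (left of the line) and 14 control regions (right). Csf1, Il1b and Lif are high together in knockdown-labelled region 4 and control region 8, and Spp1 is lowest in knockdown-labelled region 3.

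Among receptors for the members, the few that passed the test were higher in the knockdown-labelled regions. Of 24 measured receptors and binding partners, 4 rose, 0 fell and 20 did not pass the test. Of all targets, 1.31% were called as higher. The median log2 fold change of the list was -0.023, beside -0.038 over all targets. Cd74, the class II invariant chain and surface partner of MIF, averaged 9151 ± 1975 in knockdown-labelled regions (SD, n = 13) and 4043 ± 1802 in control regions (SD, n = 14), higher by 1.29 on the log2 scale (SE 0.209; limma adjusted p = 0.00312). The GM-CSF receptor chains Csf2ra (0.44, limma adjusted p = 0.00407) and Csf2rb (0.34, limma adjusted p = 0.0153) rose, as did Csf1r (0.33, limma adjusted p = 0.0259). With the log2 total as a covariate Cd74, Csf2ra and Csf2rb still passed (limma adjusted p = 0.00936, 0.0374 and 0.0166) and Csf1r, at 0.28, did not (p = 0.263). Of these 4, Cd74 was still higher as deposited (0.79), while Csf2ra, Csf2rb and Csf1r had -0.066, -0.16 and -0.17.

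Receptors of the interleukins and of osteopontin did not pass the test. The shared signal chain Il6st had a log2 fold change of -0.029, Il6ra -0.079 and Lifr 0.16 (limma adjusted p = 0.847, 0.529 and 0.325). Il1r1 and the decoy Il1r2 were below the background limit. The osteopontin receptors Cd44 and Itgb1 had -0.14 and -0.085 (limma adjusted p = 0.425 and 0.525), with Itgb1 at 4261 in knockdown-labelled regions and 4512 in control regions. Of the other integrin chains on the list, Itgb5 had -0.35 and Itga4 0.33 (limma adjusted p = 0.0743 and 0.0658). The chemokine receptors Cxcr4 and Ackr3, also on the list, had 0.061 and 0.10 (limma adjusted p = 0.751 and 0.455). The G-CSF receptor Csf3r had 0.23 (limma adjusted p = 0.0913).

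**Figure D5:**
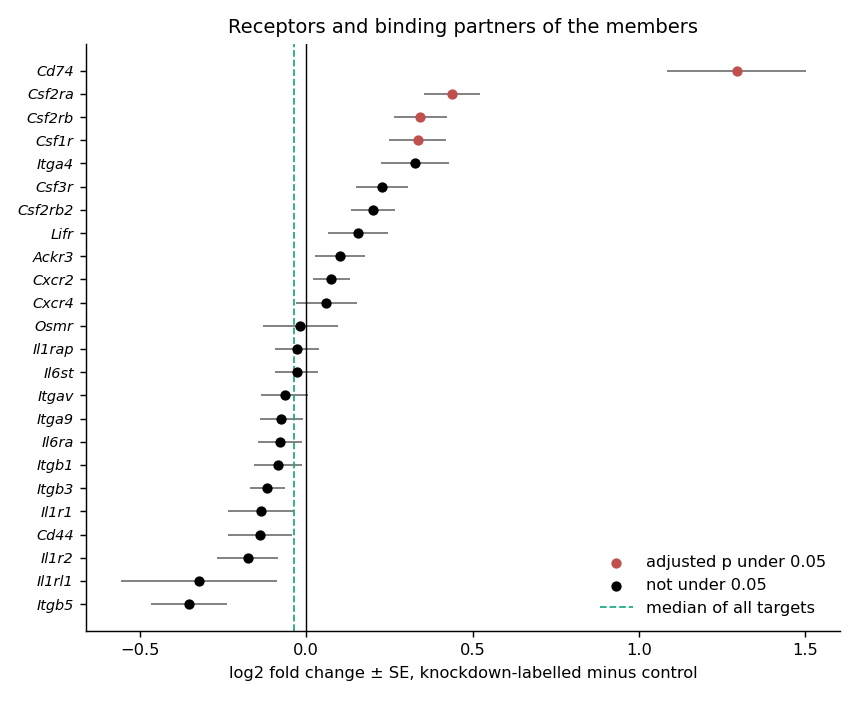
Log2 fold change ± SE of 24 receptors and binding partners, knockdown-labelled minus control, on the common scale, with the median of all targets as a dashed line. Cd74, Csf2ra, Csf2rb and Csf1r are the 4 that passed the test, and all 4 lie to the right of 0.

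Most of the further ligands and signalling genes of these families did not pass the test. Of all targets 3.89% passed, 1.31% as higher and 2.58% as lower. In each list below except that of the relatives, the share called was over 3.89%, which was not tested. Of 27 measured relatives, among them Il34, Osm, Il18, Il33 and Il1rn, 9 were above background and 0 passed the test in limma or in an exact rank-sum test, though 7 had an unadjusted p under 0.05. Those with the highest readings, the stem cell factor gene Kitl and the gp130 cytokine gene Clcf1, had log2 fold changes of 0.043 and -0.18 (limma adjusted p = 0.905 and 0.464). Of 19 other inflammatory cytokines, 1 rose, Tnf, which averaged 327 ± 45.5 in knockdown-labelled regions (SD, n = 13) and 265 ± 30.4 in control regions (SD, n = 14), higher by 0.30 on the log2 scale (limma adjusted p = 0.0124). Of 26 JAK-STAT genes, 3 rose, the phosphatase Ptpn6 (0.46), the feedback inhibitor Cish (0.26) and Cebpd (0.21), and 0 fell. Of 29 genes of interleukin-1 processing and signalling, the inflammasome adaptor Pycard (0.44) and Nlrc4 (0.21) rose and the kinase adaptor Tab2 (-0.18) fell. With the log2 total as a covariate Cish and Pycard still passed (limma adjusted p = 0.0427 and 0.0425), and Tnf, Ptpn6, Cebpd, Nlrc4 and Tab2 did not (0.0935, 0.0750, 0.320, 0.323 and 0.402). The log2 fold changes of those 5 with the covariate were 0.31, 0.41, 0.18, 0.17 and -0.12. Tnf, Ptpn6, Cish, Cebpd, Pycard and Nlrc4 were below 0 as deposited (-0.20, -0.042, -0.24, -0.29, -0.061 and -0.30). Of 59 measured genes of the panel of secreted proteins that the study assayed in medium of cultured cells, the chemokines Ccl19 and Cxcl9 and again Tnf rose, and Cxcl11 and Vegfa fell. As deposited, 1 gene of the panel was higher and 49 were lower, where 98% of all targets were lower. With the log2 total as a covariate Ccl19, Cxcl9 and Cxcl11 had 0.19, 1.34 and -0.24 and did not pass (limma adjusted p = 0.263, 0.0799 and 0.263). Ccl19 was lower as deposited (-0.23, limma adjusted p = 0.00746). Cxcl11 was below the background limit, was called in 2 of 12 other settings and was at 0.18 in the setting where its direction turned. The gene of that panel with the highest reading, Cxcl10, had a log2 fold change of -0.046 (limma adjusted p = 0.964).

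Of the cell type markers, some of macrophages, T or NK cells and hepatocytes were higher in the knockdown-labelled regions. The median log2 fold changes of these lists were 0.17, 0.32 and 0.63, beside -0.038 over all targets. Of all targets, 1.31% were called as higher. Of 23 macrophage markers 3 rose (Csf1r, counted among the receptors too, Aif1 and Tyrobp) and 0 fell, with a summed level of 21288 to 68502 in knockdown-labelled regions and 19012 to 38090 in control regions. Of 16 T or NK cell markers 7 rose, with sums of 3025 to 5346 in knockdown-labelled regions and 2343 to 3964 in control regions. Of 15 hepatocyte markers 6 rose, with sums of 2256 to 12722 in knockdown-labelled regions and 2172 to 5829 in control regions. As deposited, the macrophage list had 0 higher and 11 lower, the T and NK list had 0 higher and 5 lower, and the hepatocyte list had 4 higher and 4 lower. Of 12 neutrophil, 15 fibroblast, 12 endothelial and 10 epithelial markers 0 passed the test in limma or in an exact rank-sum test, and 3, 2, 0 and 3 of them had an unadjusted p under 0.05 in limma. With the log2 total as a covariate none of the called macrophage, T or NK cell and hepatocyte markers passed, the lowest limma adjusted p being 0.0727, for Fabp1. The log2 fold change of Fabp1 was 0.90 with that covariate and 0.92 without it. It was 0.40 and 0.51 for Aif1, and 0.29 and 0.39 for Cd3d. Across regions, the mean of the macrophage list ran opposite to Lif (r = -0.59), Il1b (r = -0.52) and Spp1 (r = -0.41) and had r = 0.16 with Csf1. The neutrophil list mean rose with Il1b (r = 0.61), Lif (r = 0.56) and Csf1 (r = 0.43). The epithelial list mean rose with Spp1 (r = 0.58), Il1b (r = 0.45) and Lif (r = 0.43). Only 2 of 12 neutrophil and 1 of 10 epithelial markers were above background, and Il1b had r = 0.64 with the ratio of background to median. Mif ran opposite to the fibroblast (r = -0.47) and T or NK cell lists (r = -0.40). The part of cell makeup in the member levels was not tested.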

How the data were processed

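The values deposited by the authors are normalised GeoMx signal, with 19615 targets in rows and regions in columns, made with the GeoMx DSP Analysis Suite. Its version is not given in the sources used here. At least 99.98% of a region's values were whole multiples of 1 step (tolerance 0.01), but the lowest reading was 10 to 126 steps, so steps were not taken for reads and no count test was run. Each region was scaled to the same median over all targets (common scale). Log2(value + 1) was taken with background left in, which understates changes of low targets. It was tested with limma 3.58.1 (trend and robust settings, two-sided, R 4.3.3) and adjusted over 19615 targets, with a threshold of 0.05. Single members were also tested by permutation (100000 resamples). The members and lists were chosen with earlier results of these data known. Named genes were all members, in each list up to 4 called genes by smallest p and the 2 of highest mean, and the 3 targets most like each member above background (some given only as counts). Other receptors, the relatives given by name alone and Cxcl11 were chosen after their values were seen. Alternatives in scaling, pseudocount, filter, background, limma settings, covariate, test and regions were run. Gene models are GENCODE's and promoter windows RefSeq's, both on GRCm38.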

Additional observations from a re-analysis of the deposited data

How the results depend on the processing

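Mif was called and the count of members called was 1. The count was 0 with background subtraction (Mif -0.36, limma adjusted p = 0.0564), housekeeping scaling (-0.27, p = 0.188), the log2 total as a covariate (-0.29, p = 0.283), quantile normalisation (-0.25, p = 0.0974), the same total (-0.30, p = 0.0557) and without control regions 6 and 7 together (-0.28, p = 0.0921), and 10 on the deposited values. Leaving out 1 region at a time gave 0 to 2 members called, 0 without knockdown-labelled region 8 or control region 3, 6 or 8, and 2 (Lif and Mif) without control region 11 or 12. Mif kept its call in 7 of 13 settings other than the deposited values and leaving out 1 region. Directions turned for Csf1 (-0.42), Csf2 (-0.48), Il1b (-0.43) and Il6 (-0.46) on the deposited values, for Csf3 with housekeeping scaling (0.043) and the same total (0.014), and for Il1a with housekeeping scaling (0.010). Background subtraction gave no value for Il11, whose values all sat at the floor. Over all targets 763 were called, 33.6% of them higher; 373 were called with background subtraction, 262 with housekeeping scaling (81.3% higher), 27 with the log2 total (85.2% higher), 403 with the same total (63.8% higher), 433 with the same upper quartile (50.8% higher), 296 without control regions 6 and 7, and 19236 on the deposited values. The share higher was 59.5% with TMM factors, 47.7% with quantile normalisation and 51.2% with background subtraction. Leaving out 1 region gave 348 (without knockdown-labelled region 8) to 1442 (without control region 13). The cause was not tested. No paired analysis was possible because the labels number regions in 1 run with no number shared between groups. A median of 72 to 333 steps in knockdown-labelled regions and 192 to 427 in control regions limits the precision of the 5 members below background.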
